A study of Sus scrofa with 8 samples.

Results

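The genes described here are the molybdenum enzymes of the pig heart and the genes that build their cofactor: MARC1, MARC2, SUOX, XDH, AOX1, MOCS1, MOCS2, MOCOS and GPHN, 9 of the 31014 genes in the deposited table. MARC1 was selected on its values in the comparison described here, as the gene with the smallest p among those lower after doxorubicin, and the other 8 were listed for their function. Doxorubicin, an anthracycline used against cancer that is known to damage the heart, was compared in 5 heart samples of wild-type (WT) miniature pigs with vehicle in 3. Both groups were WT heart, and treatment was the only difference the labels give. The sources used here do not give dose, schedule, age or sex. They do not say either that each sample is a separate animal, and p-values therefore describe the spread among these 8 libraries only.

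Animal cells use molybdenum through an organic cofactor, a pterin that binds the metal through sulfur. MOCS1 and MOCS2 build the pterin from GTP and add its sulfur, and GPHN (gephyrin) inserts the metal. The cofactor serves sulfite oxidase (SUOX), the mitochondrial amidoxime reducing components (MARC1 and MARC2) and, after MOCOS has added a further sulfur, xanthine oxidoreductase (XDH) and aldehyde oxidase (AOX1). In the heart XDH is known as a source of uric acid and of reactive oxygen species, and SUOX clears the sulfite left by the breakdown of cysteine.

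Of the 9 genes, 7 were found by the gene name in the deposited table and 2 were not. MARC1 and MARC2 stood there under names of the form of dates, 1-Mar and 2-Mar, 2 of 26 genes so named. Each of these names was shared with a membrane-bound RING finger gene, 1-Mar with MARCH1 and 2-Mar with MARCH2. MARC1 and MARC2 were therefore identified by gene ID, matched to its RefSeq symbol. The choice of row matters, because the MARCH1 row had a log2 fold change of 0.91 (SE 0.41), opposite in sign to MARC1, and the MARCH2 row one of −0.12 (SE 0.15).

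Library totals ran from 17442566 to 18267178 counts after doxorubicin and from 16105242 to 17195538 counts in vehicle. Values below are CPM, counts scaled to each library's total over tested genes times its TMM factor. Doxorubicin 5 was the library least like its group: its log2 CPM correlated at 0.912 on average with doxorubicin 1 to 4, whose own averages lay between 0.941 and 0.956, and the vehicle averages lay between 0.974 and 0.977. Mitochondrial genes held 8.70% to 16.6% of counts after doxorubicin and 23.6% to 27.5% in vehicle. Cardiomyocyte markers, among them MYH7 and TNNT2, were abundant in all 8 libraries, summing to between 24330 and 52400 CPM after doxorubicin and between 51740 and 58550 CPM in vehicle.

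MARC1 and MARC2 are enzymes of the outer mitochondrial membrane that reduce N-hydroxylated compounds with electrons from cytochrome b5. Transcripts of both were several-fold lower in every doxorubicin library than in any vehicle library, and AOX1 was higher in every one. GPHN was lower by a smaller factor, and the remaining 5 genes did not pass the test across all genes, which 24.9% of all tested genes passed. The plot of CPM by library shows these 9 genes together.

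**Figure D1:**
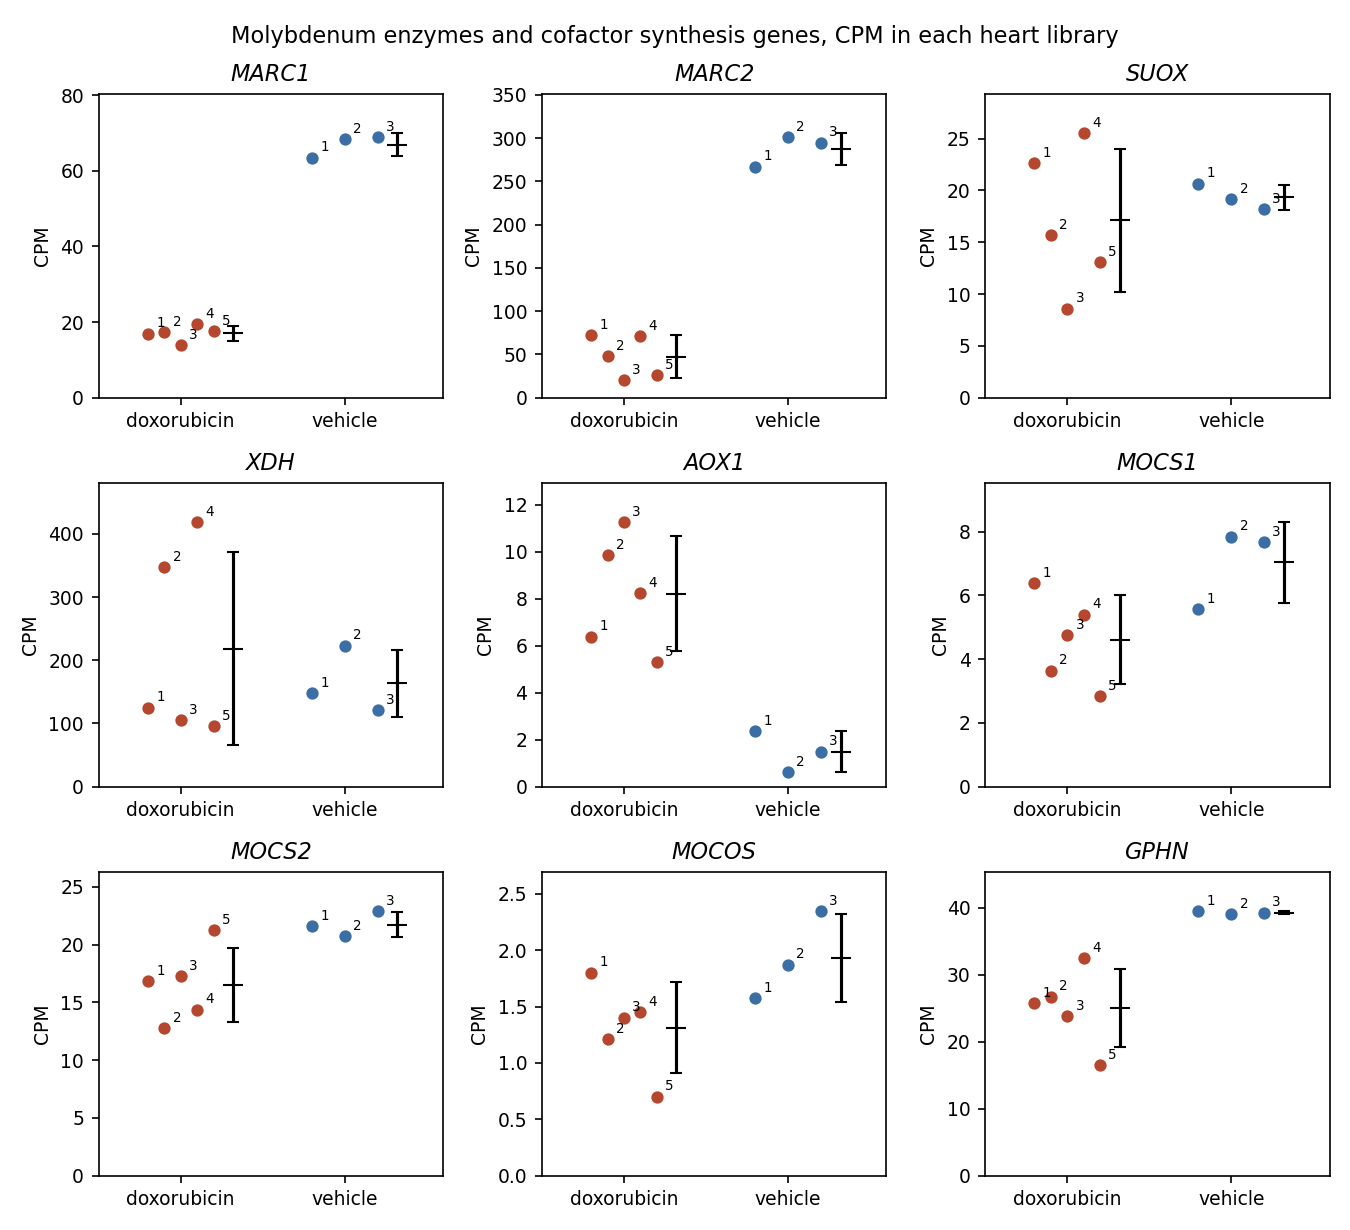
CPM of each of the 9 genes (y axis, from 0) in the 5 doxorubicin and 3 vehicle libraries (points, numbered by replicate), with the mean and SD beside each group. The doxorubicin points lie below all vehicle points for MARC1, MARC2 and GPHN and above them for AOX1.

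MARC1 (gene ID 100516871; Sscrofa11.1 chromosome 10, 10190759 to 10264467, plus strand, protein-coding) was at 16.9, 17.3, 13.9, 19.3 and 17.5 CPM in doxorubicin 1 to 5, against 63.4, 68.4 and 68.9 CPM in vehicle 1 to 3. The groups were far apart, and no doxorubicin library stood out from the other 4. Means were 17.0 ± 1.96 CPM after doxorubicin and 66.9 ± 3.01 CPM in vehicle (SD, n = 5 and n = 3), a log2 fold change of −1.98 (SE 0.14) or a 3.93-fold lower level. No test is given for MARC1, since this contrast chose it. Among lower genes ranked by p it was first. Next in that order stood an unnamed locus, LOC100513397 (log2 fold change −2.55, SE 0.19). After it came GKAP1 (log2 fold change −1.94, SE 0.15).

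MARC1 was picked for a small p, which favours a small spread between libraries, so its spread is given as a description. Its coefficient of variation was 11.5% after doxorubicin, where counting error for its reads gives about 5.46%, and 4.50% in vehicle, where counting error gives 3.25%. On the log2 CPM scale its SD among the doxorubicin libraries was 0.172.

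MARC2 (gene ID 100517050; chromosome 10, 10156732 to 10194371, plus strand) is listed as a lncRNA in this annotation. It was at 72.6, 48.1, 20.1, 71.4 and 25.7 CPM in doxorubicin 1 to 5, against 267, 301 and 295 CPM in vehicle 1 to 3. The groups did not overlap. Doxorubicin 3 and doxorubicin 5 were lowest and doxorubicin 1 and doxorubicin 4 highest of their group. MARC2 fell to 47.6 ± 24.6 CPM after doxorubicin, against 288 ± 18.1 CPM in vehicle, a 6.05-fold lower level (log2 fold change −2.60, SE 0.40, adjusted p = 0.00598 by edgeR's quasi-likelihood test with Benjamini-Hochberg adjustment over 14938 genes). It passed under all 17 alternative settings and left-out libraries that were run, with adjusted p up to 0.0393.

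The values of the paralogues were also set side by side by library, as a description, since MARC1 was chosen on them. MARC2 CPM was 4.29, 2.78, 1.44, 3.69 and 1.47 times MARC1 CPM in doxorubicin 1 to 5, against 4.21, 4.40 and 4.28 times in vehicle 1 to 3. The ratio was thus at the vehicle level in doxorubicin 1 and lower in the other 4 doxorubicin libraries, lowest in doxorubicin 3 and doxorubicin 5. The summed cardiomyocyte markers, most of them MYH7, were also lowest in these last libraries, at 35920 CPM in doxorubicin 3 and 24330 CPM in doxorubicin 5. Single markers did not all follow the sum. TNNT2 was at 2587 CPM in doxorubicin 3 but at 4279 CPM in doxorubicin 5, above the 1805 to 3062 CPM of vehicle. The part of cardiomyocytes in the MARC2 values was not tested, and in bulk tissue fewer cells of a type and less RNA per cell cannot be told apart.

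The annotated spans of MARC2 and MARC1 share 3613 bases (chromosome 10, 10190759 to 10194371) on the same strand. Whether reads there were counted for either gene, both or neither is not given in the sources used here, and whether the shared stretch is exonic was not tested. The other end of MARC1 shares 1027 bases with HLX, a homeobox transcription factor gene on the same strand. HLX was at 12.8, 9.04, 16.0, 14.3 and 9.05 CPM in doxorubicin 1 to 5, against 4.43, 6.59 and 3.70 CPM in vehicle 1 to 3 (log2 fold change 1.32, SE 0.29, adjusted p = 0.0136), and it did not pass without vehicle 1 or vehicle 3 (adjusted p up to 0.0685). The gene on one side of MARC1 was thus lower after doxorubicin and the gene on the other side higher.

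**Figure D2:**
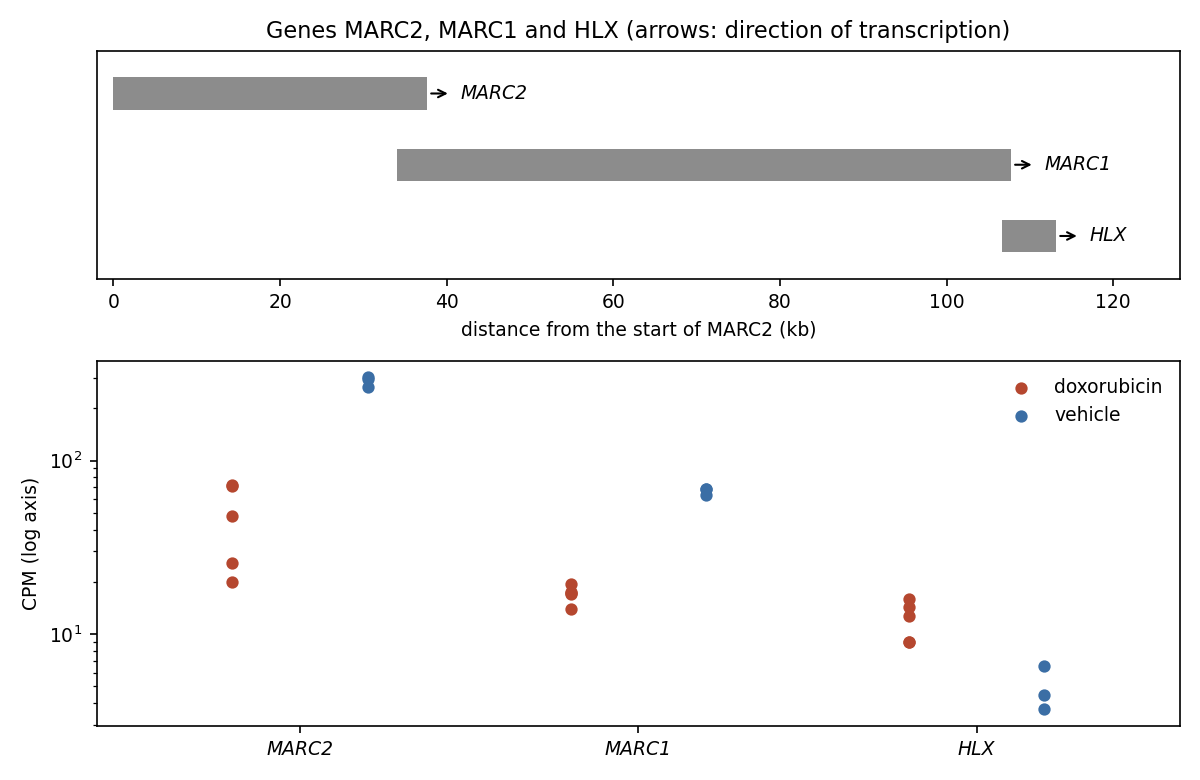
Top, the annotated spans of MARC2, MARC1 and HLX drawn to scale as distance in kb from the start of MARC2, all transcribed left to right, with overlaps of 3613 and 1027 bases. Bottom, their CPM on a log axis in the 5 doxorubicin and 3 vehicle libraries, where MARC2 and MARC1 lie lower after doxorubicin and HLX higher.

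AOX1, aldehyde oxidase, oxidises aldehydes and nitrogen-containing rings in the cytosol (gene ID 100523701; chromosome 15, 104157748 to 104234533, plus strand, protein-coding). It was at 6.38, 9.85, 11.3, 8.25 and 5.30 CPM in doxorubicin 1 to 5, against 2.36, 0.624 and 1.49 CPM in vehicle 1 to 3. Every doxorubicin library was above every vehicle library, although the vehicle values rest on 9 to 33 reads each. AOX1 rose to 8.21 ± 2.44 CPM after doxorubicin, against 1.49 ± 0.867 CPM in vehicle, 5.49-fold (log2 fold change 2.46, SE 0.44, adjusted p = 0.00813). It passed in all 17 alternatives, with log2 fold changes from 2.09 without vehicle 2 to 2.95 without vehicle 1.

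The pig genome holds related oxidase genes beside AOX1. AOX2 had 3 to 10 reads per library after doxorubicin and 5 to 12 in vehicle, and AOX4 had 0 to 6 after doxorubicin and 0 to 2 in vehicle. Neither reached the count needed for testing. Summed fibroblast markers, which include COL1A1 and COL3A1, ran from 2141 to 19470 CPM after doxorubicin and from 1148 to 1310 CPM in vehicle. Doxorubicin 5 had the most of these markers, with COL1A1 at 6607 CPM and COL3A1 at 11490 CPM, and the least AOX1 of its group. Doxorubicin 3 and doxorubicin 2 came next in the marker sum, at 5121 and 3614 CPM, and had the most AOX1. The part of fibroblasts in the AOX1 values was not tested.

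XDH, xanthine oxidoreductase, makes uric acid from hypoxanthine and xanthine (gene ID 100515259; chromosome 3, 107987060 to 108052043, plus strand, protein-coding). It was at 125, 347, 105, 418 and 95.2 CPM in doxorubicin 1 to 5, against 148, 223 and 121 CPM in vehicle 1 to 3. Doxorubicin 2 and doxorubicin 4 lay above all vehicle libraries, whereas doxorubicin 3 and doxorubicin 5 lay below them and doxorubicin 1 among them. The mean was 218 ± 153 CPM after doxorubicin and 164 ± 52.9 CPM in vehicle, and the difference did not pass (log2 fold change 0.41, SE 0.53, adjusted p = 0.589). Without doxorubicin 4 the log2 fold change was 0.04.

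XDH is known from endothelial cells of the heart, so endothelial markers were set beside it. Their sum was 1438, 1258, 884, 1530 and 536 CPM in doxorubicin 1 to 5 and ran from 1178 to 1524 CPM in vehicle. Among the doxorubicin libraries, doxorubicin 4 was highest, doxorubicin 3 next to lowest and doxorubicin 5 lowest in both. Doxorubicin 1 had more of these markers than doxorubicin 2 but less XDH. The part of endothelial cells in the XDH values was not tested.

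SUOX, the enzyme of the mitochondrial intermembrane space that oxidises sulfite to sulfate (gene ID 100625272; chromosome 5, 21395246 to 21399715, plus strand, protein-coding), was at 22.6, 15.7, 8.59, 25.5 and 13.1 CPM in doxorubicin 1 to 5. In vehicle 1 to 3 it was at 20.6, 19.1 and 18.2 CPM. Doxorubicin 1 and doxorubicin 4 were above the vehicle libraries and the other 3 below, the same split as between high and low MARC2 with doxorubicin 2 in the middle. The log2 fold change was −0.18 (SE 0.31, adjusted p = 0.702), and with scaling by library size only it was 0.16.

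Of the 4 genes of cofactor synthesis GPHN passed and MOCS1, MOCS2 and MOCOS did not, where 24.9% of all tested genes passed. GPHN, which also anchors inhibitory receptors in nerve cells (gene ID 100153443; chromosome 7, 90345726 to 90913625, plus strand, protein-coding), was at 25.8, 26.7, 23.8, 32.5 and 16.5 CPM in doxorubicin 1 to 5. In vehicle 1 to 3 it was at 39.4, 39.0 and 39.3 CPM. The groups did not overlap, and doxorubicin 5 was lowest.

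GPHN fell to 25.0 ± 5.79 CPM after doxorubicin, against 39.2 ± 0.232 CPM in vehicle (log2 fold change −0.65, SE 0.20, adjusted p = 0.0396). The vehicle libraries agreed more closely than counting error alone gives, with a coefficient of variation of 0.592% against 4.24%. The call was lost in 9 of 17 alternatives, among them library size only (log2 fold change −0.29, adjusted p = 0.271), the fit without the gene density trend (adjusted p = 0.126) and without any vehicle library (adjusted p = 0.0950 to 0.121).

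MOCS1, which makes the first pterin intermediate (gene ID 100154835; chromosome 7, 35286565 to 35320935, minus strand, protein-coding), was at 6.38, 3.64, 4.76, 5.39 and 2.85 CPM in doxorubicin 1 to 5, against 5.57, 7.84 and 7.68 CPM in vehicle 1 to 3. The groups overlapped through doxorubicin 1 and vehicle 1. Its log2 fold change was −0.61 (SE 0.29, adjusted p = 0.138).

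MOCS2, which encodes both subunits of the enzyme that adds the dithiolene sulfurs (gene ID 100512870; chromosome 16, 32427783 to 32462362, minus strand, protein-coding), was at 16.9, 12.8, 17.3, 14.4 and 21.3 CPM in doxorubicin 1 to 5. In vehicle 1 to 3 it was at 21.6, 20.7 and 22.9 CPM. Doxorubicin 5 was within the vehicle range and the other 4 lay below it, whereas for GPHN doxorubicin 5 was lowest. Its log2 fold change was −0.40 (SE 0.18, adjusted p = 0.126), and without doxorubicin 5 it passed (log2 fold change −0.50, adjusted p = 0.0295). The span of MOCS2 shares 12529 bases with ITGA2 on the opposite strand, which averaged 37.8 reads after doxorubicin and 19.0 in vehicle. The sources used here do not say whether counting used the strand.

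MOCOS, the sulfurase that XDH and AOX1 need (gene ID 100621611; chromosome 6, 119945076 to 120018332, plus strand, protein-coding), was scarce, at 14 to 33 reads per library after doxorubicin and 22 to 33 in vehicle. It averaged 1.31 ± 0.403 CPM after doxorubicin and 1.93 ± 0.391 CPM in vehicle, and the groups overlapped (log2 fold change −0.55, SE 0.38, adjusted p = 0.299). Its coefficient of variation was 30.7% after doxorubicin, where counting error alone gives 19.7%. With limma voom it passed (log2 fold change −0.71, adjusted p = 0.0362).

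In all, the 9 genes held 1 that was called higher and 3 called lower, MARC1 included by choice, and 5 that did not pass. Over all 14938 tested genes 24.9% were called, 13.6% higher and 11.3% lower. Of the 8 other than MARC1, 1 was called higher, 2 were called lower and 5 did not pass. Groups did not overlap for 4 of the 9, 1 higher and 3 lower, with MARC1, chosen on these values, among the lower. Over all tested genes that share was 34.9%, 17.1% higher and 17.8% lower. All 9 reached the count needed for testing. The median log2 fold change was −0.55 over the 9 and −0.48 over the 8 other than MARC1, against 0.02 over all tested genes. With library size only, the median of all tested genes was 0.38 and 3 of the 9 were called. The 8 were listed with earlier results of this contrast known.

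Levels were compared between genes as CPM per kb of the gene length in the deposited table. In vehicle MARC2 had the highest level per kb (108 ± 6.80), followed by XDH (34.6 ± 11.2) and MARC1 (11.6 ± 0.524). SUOX (8.30 ± 0.529) and GPHN (8.05 ± 0.0477) came next with overlapping ranges, then MOCS1 (2.49 ± 0.447) and MOCS2 (1.38 ± 0.0690). MOCOS (0.587 ± 0.119) and AOX1 (0.371 ± 0.216) were lowest and overlapped. The length listed for MOCS2 is 15779 bases, the longest of the 9, which lowers its value on this scale.

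After doxorubicin the order per kb differed. XDH (46.0 ± 32.2) stood above MARC2 (17.9 ± 9.25), followed by SUOX (7.34 ± 2.97) and GPHN (5.14 ± 1.19), each overlapping its neighbour in range. MARC1 (2.96 ± 0.341) came next, below SUOX and GPHN, and then AOX1 (2.04 ± 0.607), MOCS1 (1.63 ± 0.495) and MOCS2 (1.05 ± 0.205). These last 4 overlapped in turn, and MOCOS (0.399 ± 0.123) lay below them all. AOX1 thus stood above 3 genes after doxorubicin and above none in vehicle. The ranges of MARC1 and AOX1 overlapped after doxorubicin and were more than 10 CPM per kb apart in vehicle. Among all tested genes the vehicle level per kb of MARC2 lay at percentile 96.4 and that of AOX1 at percentile 14.3.

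**Figure D3:**
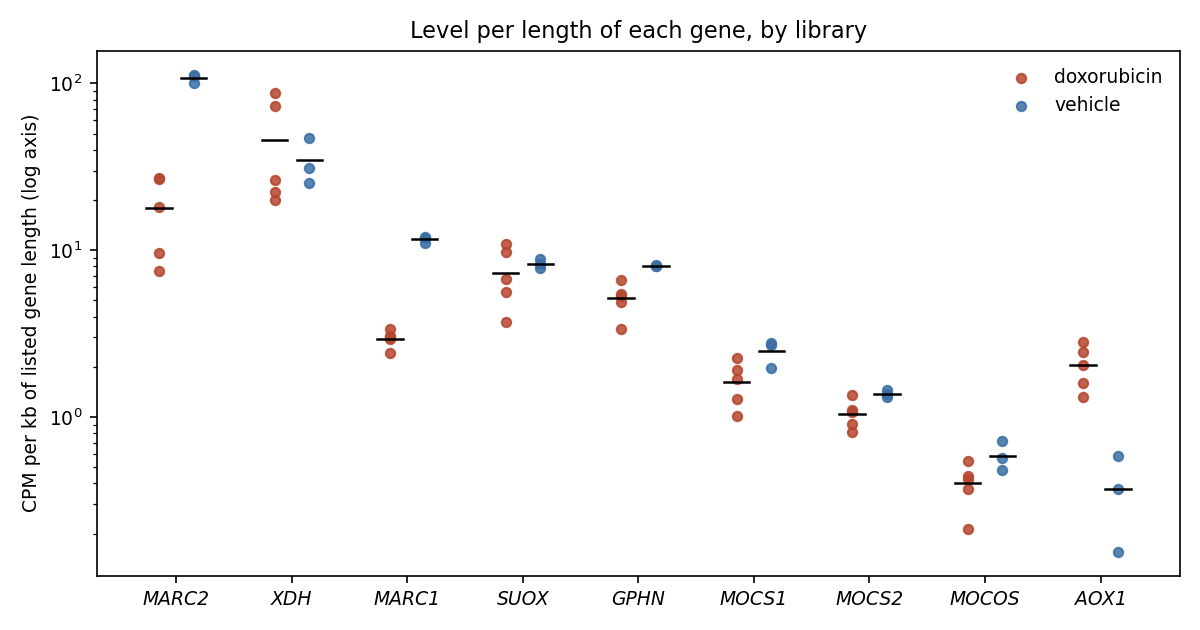
Level of each gene in CPM per kb of listed gene length (y axis, log scale) in the 5 doxorubicin and 3 vehicle libraries (points) with group means (bars), ordered by the vehicle mean. MARC2 and MARC1 lie lower after doxorubicin, and AOX1, last in vehicle, lies between MOCS1 and MARC1 after doxorubicin.

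Markers of other cell types moved with the treatment as well. Adipocytes, which with liver are known for their MARC1, were followed by 6 markers. Of these, 4 could be tested and 2 fell, whereas 11.3% of all tested genes were called lower. The summed level of the 6 markers was 57.2 to 284 CPM after doxorubicin and 376 to 533 CPM in vehicle. Most of it was FABP4 and PLIN4, which other cells of the heart also express. ADIPOQ, a defining adipocyte gene, had 0 to 4 reads per library after doxorubicin and 60, 30 and 265 in vehicle 1 to 3, while MARC1 differed little between these vehicle libraries. LEP had no reads in the vehicle libraries. The part of adipocytes in the MARC1 and MARC2 values was not tested.

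The other marker lists were summed in the same way. Macrophage markers ran from 167 to 449 CPM after doxorubicin and from 109 to 148 CPM in vehicle, and T cell markers from 10.9 to 23.3 CPM after doxorubicin and from 3.50 to 6.31 CPM in vehicle. Of these, 4 of 6 macrophage and 4 of 4 T cell markers rose. Among fibroblast markers 3 of 6 rose and 1 fell, among endothelial markers 1 of 7 rose, and among cardiomyocyte markers 1 of 7, RYR2, fell. Over all tested genes 13.6% were called higher and 11.3% lower. Smooth muscle and pericyte, Schwann cell and neuron, neutrophil, erythroid and hepatocyte sums overlapped between the groups. Among the hepatocyte markers SERPINA1 had no reads in any library and TTR none in vehicle.

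The reactions that feed and drain these enzymes were read from lists of pathway genes. MARC1 and MARC2 take electrons from CYB5B, the cytochrome b5 of the outer mitochondrial membrane, which a reductase supplies. Of 3 cytochrome b5 and cytochrome b5 reductase genes tested, 1 fell and 2, CYB5B among them, did not pass. The share called was 33.3%, against 24.9% of all tested genes. The median log2 fold change of the 3 was −0.52. CYB5R1, a cytochrome b5 reductase, fell to 141 ± 38.2 CPM after doxorubicin, against 231 ± 22.7 CPM in vehicle (log2 fold change −0.71, SE 0.23, adjusted p = 0.0491), and lost its call in 10 of 17 alternatives. For CYB5A, the microsomal cytochrome b5, the change was −0.52 on the log2 scale (SE 0.21, adjusted p = 0.0865). CYB5B averaged 10.9 ± 1.36 CPM after doxorubicin and 13.2 ± 0.654 CPM in vehicle (log2 fold change −0.28, adjusted p = 0.220), and its sign turned with library size only (0.07). CYB5R3, also on this list, was not found under that symbol and was not analysed here.

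Of 16 tested genes of sulfide and sulfite supply and use, 1 rose, 3 fell and 12 did not pass, a share called of 25.0% against 24.9% of all tested genes. Their median log2 fold change was −0.17. CDO1, cysteine dioxygenase, the first step of the route from cysteine to sulfite and taurine, fell to 7.43 ± 1.70 CPM after doxorubicin, against 20.1 ± 1.63 CPM in vehicle (log2 fold change −1.43, SE 0.21, adjusted p = 0.00546). CBS, cystathionine beta-synthase, which begins cysteine synthesis, fell to 1.74 ± 0.645 CPM, against 5.23 ± 0.768 CPM in vehicle (log2 fold change −1.58, SE 0.33, adjusted p = 0.0123). It did not pass without vehicle 1 or vehicle 3 (adjusted p up to 0.0632).

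SLC26A2, a sulfate carrier of the plasma membrane, rose to 27.7 ± 3.33 CPM after doxorubicin, against 13.5 ± 2.12 CPM in vehicle (log2 fold change 1.04, SE 0.17, adjusted p = 0.00689). CDO1 and SLC26A2 passed in all 17 alternatives. The other lower gene of this list, named after its values were seen, was CYCS, cytochrome c, which accepts the electrons of SUOX. It was at 479.5 ± 151 CPM after doxorubicin and 857 ± 44.9 CPM in vehicle (log2 fold change −0.84, SE 0.27, adjusted p = 0.0487), and it lost its call in 9 of 17 alternatives.

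In the list for purine breakdown, which passes through XDH, 44.4% of 9 tested genes were called, against 24.9% of all tested genes. Of these 9, 2 rose, 2 fell and 5 did not pass, and 7 more listed genes were too low to test. One of those that fell, NT5C3A, is known to act on pyrimidine nucleotides. The median over the 9 was a log2 fold change of 0.27. NT5C3A, a nucleotidase of the cytosol, fell to 14.8 ± 1.86 CPM after doxorubicin, against 30.9 ± 0.483 CPM in vehicle (log2 fold change −1.06, SE 0.14, adjusted p = 0.00525). AMPD2, an AMP deaminase, rose to 11.3 ± 2.37 CPM, against 3.92 ± 0.950 CPM in vehicle (log2 fold change 1.52, SE 0.26, adjusted p = 0.00756). APRT, which salvages adenine, rose to 22.4 ± 10.3 CPM, against 8.63 ± 2.79 CPM in vehicle (log2 fold change 1.38, SE 0.36, adjusted p = 0.0247), but did not pass without vehicle 1 or vehicle 3 (adjusted p up to 0.111). The other lower gene, named after its values were seen, was AMPD3, an AMP deaminase like AMPD2, at 17.2 ± 4.66 CPM after doxorubicin and 30.4 ± 3.49 CPM in vehicle (log2 fold change −0.82, SE 0.23, adjusted p = 0.0316). AMPD3 lost its call in 7 of 17 alternatives.

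Of the genes of sulfur and molybdate supply, 2 are given by value. MFSD5, linked to molybdate uptake in human cells, did not pass (log2 fold change 0.55, SE 0.26, adjusted p = 0.139). MOCS3, which hands sulfur to MOCS2, averaged 19.2 ± 2.6 CPM after doxorubicin and 16.8 ± 1.92 CPM in vehicle (log2 fold change 0.20, SE 0.17, adjusted p = 0.398).

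Of 6 tested partners of gephyrin none passed edgeR's test on all 8 libraries, against 24.9% of all tested genes. Their median log2 fold change was −0.35. At an unadjusted p under 0.05 there was 1, against 6095 of all 14938 tested genes. DESeq2 called none (0), against 4945 of all tested genes, and limma voom called 2, against 8051. GLRA3, a glycine receptor subunit, averaged 0.500 ± 0.224 CPM after doxorubicin and 1.09 ± 0.404 CPM in vehicle (adjusted p = 0.115). It had 7 to 17 reads per library after doxorubicin and 10 to 21 in vehicle. GABRA2, a GABA receptor subunit, averaged 0.455 ± 0.661 CPM after doxorubicin and 1.51 ± 0.491 CPM in vehicle (log2 fold change −1.71, adjusted p = 0.217). GABRA2 had only 0, 4, 9, 1 and 32 reads in doxorubicin 1 to 5 and 27, 14 and 23 in vehicle 1 to 3. Without doxorubicin 5, which stood far above the other 4 in GABRA2, its log2 fold change was −3.06 and it passed (adjusted p = 0.0153). DYNLL1, a dynein light chain, was at 60.5 ± 30.1 CPM after doxorubicin and 38.7 ± 4.05 CPM in vehicle (adjusted p = 0.187).

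**Figure D4:**
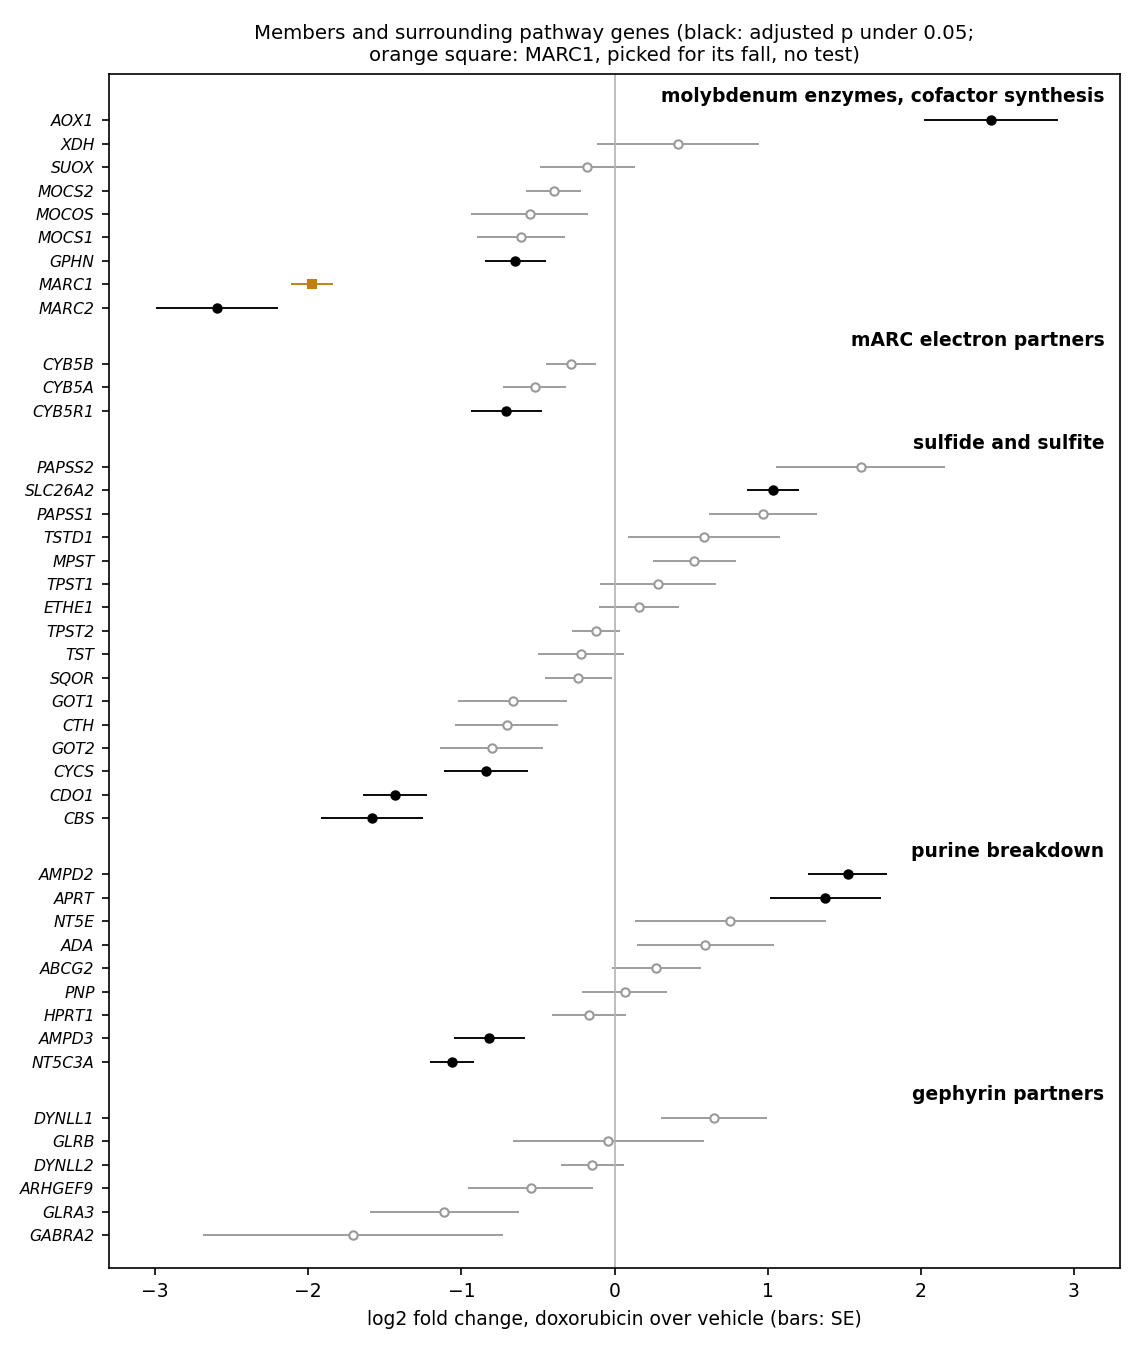
Log2 fold change (x axis, doxorubicin over vehicle, bars are SE) of the 9 genes and of each tested gene in 4 pathway lists. Black points passed an adjusted p of 0.05 over all genes, open points did not, and the square is MARC1, which was picked for its fall. AOX1, MARC2 and the square lie farther from 0 than any gene of the 4 pathway lists.

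The genes whose pattern was most like that of MARC1 were found by the root-mean-square difference of log2 CPM, centred on each gene's mean, over all 8 libraries. Among 12142 protein-coding genes with a symbol and a mean of at least 1 CPM, the nearest were GKAP1 (0.156), TECRL (0.234), P2RY1 (0.254), MGST2 (0.262) and CCDC146 (0.290). GKAP1 encodes an anchor of cGMP-dependent protein kinase, TECRL a reductase-like protein known from inherited arrhythmia in humans, P2RY1 a receptor for ADP, MGST2 a microsomal glutathione transferase and CCDC146 a centriolar protein. Their log2 fold changes ran from −1.70 for MGST2 to −1.99 for CCDC146. The likeness is mostly the difference between the groups that chose MARC1, so it is a description. By the same measure GPHN (0.677) and MARC2 (0.647) were the members nearest to MARC1 and AOX1 (2.24) the farthest.

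The 9 genes were also compared under other scalings, filters, tools and left-out libraries. The log2 fold change of XDH ran from 0.04 to 1.07 and that of SUOX from −0.70 to 0.16, whereas MARC1 stayed between −2.06 and −1.62. The plot of log2 fold change by setting shows each value.

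**Figure D5:**
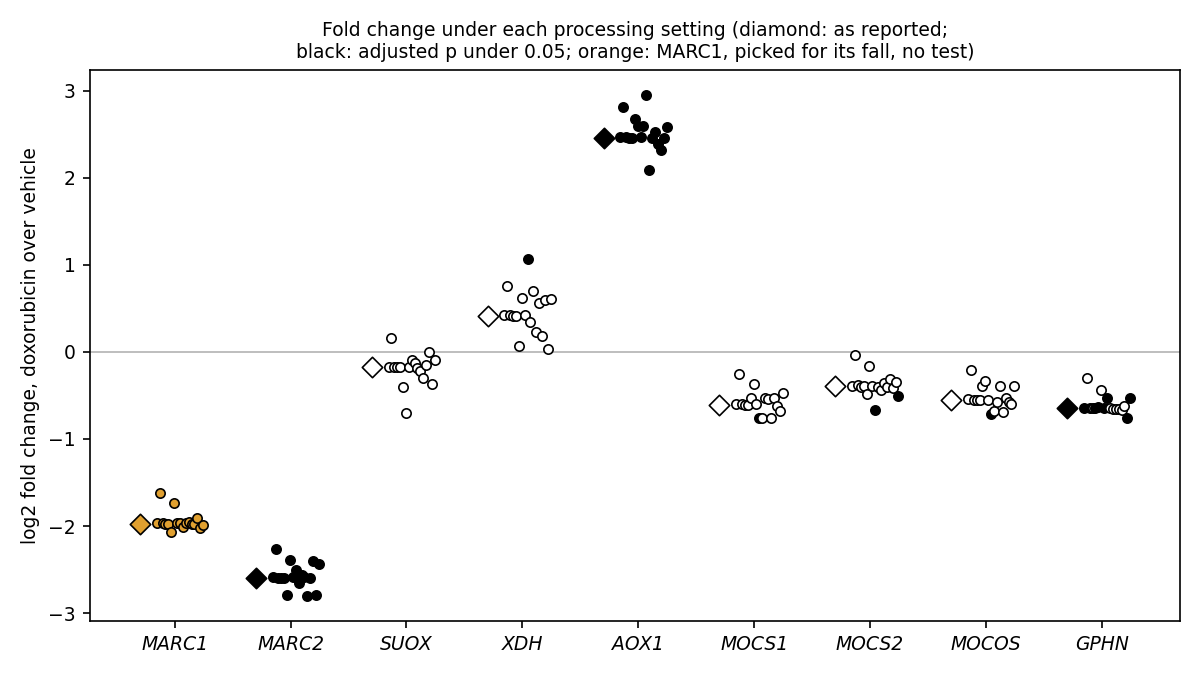
Log2 fold change (y axis, doxorubicin over vehicle) of each gene as reported (diamond) and under 17 alternatives (circles), filled black where the adjusted p was under 0.05 and orange for MARC1, which is not tested. MARC2 and AOX1 passed in all 17, and GPHN in 8.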

How the data were processed

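Libraries were made from total RNA of heart tissue with a SMARTER mRNA-seq kit, per the labels' protocols. The authors deposited raw counts per gene, which are whole numbers, with aligner, counter and strand setting not given in the sources used here. Columns were matched to samples by title. All 30335 gene IDs matched to RefSeq had the coordinates of Sscrofa11.1. The gene length (in bases, another column the authors deposited) gave CPM per kb. The members, lists and markers were chosen with earlier results of these data known.

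Counts were fitted in R 4.3.3 with edgeR 4.0.16 (filterByExpr with minimum count 10 and minimum total 15, TMM, robust quasi-likelihood, treatment as the only term, two-sided, adjusted p under 0.05) and tested on simulated data. SE is the log2 fold change over the root of its F statistic. Named were the 9 members, up to 3 genes with the smallest p per list and 5 genes like MARC1. Counts for the list of sulfur and iron supply, and some of its genes, are not reported here. Alternatives were RLE factors, library size only, TMM with mitochondrial genes, haemoglobin genes and the 20 most abundant genes removed, 2 filters, DESeq2 1.42.0, limma 3.58.1 voom, a replicate block, removal of the gene density trend (within 500 kb, lowess span 0.3) and leaving out each library. The limma voom fit used quality weights for each library and robust empirical Bayes. Libraries of a group differed by 14.1 to 224 times sampling noise (chi-square over its degrees of freedom). Figures used matplotlib 3.10.9.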

Additional observations from a re-analysis of the deposited data

Results flagged for a closer look

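In the 5 doxorubicin libraries 2 of 24 genes examined had a library far from the other 4, where chance flags about 1 in 20, and in both it was doxorubicin 5. APRT was at 40.3 CPM there, against 15.4 to 22.5 CPM in the other 4. GABRA2 was at 1.60 CPM there (32 reads), against 0 to 0.42 CPM in the other 4 (0 to 9 reads). Without doxorubicin 5 its log2 fold change was −3.06 in place of −1.71 and it passed (edgeR, adjusted p = 0.0153). None of the 9 molybdenum genes met this criterion, and the 3 vehicle libraries are too few for the same check.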

How the results depend on the processing

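MARC2 and AOX1 passed in the same direction in all 17 alternatives, with log2 fold changes from −2.80 to −2.26 and from 2.09 to 2.95, and MARC1, not tested, kept its direction in all 17. SUOX turned to 0.16 and CYB5B to 0.07 with library size only. Over all genes 3714 were called. The limma voom fit, which weighted each library by its quality, called 8051, with 8 of the 9 molybdenum genes among them in place of 4. The cause was not tested. Leaving out each library gave 649 to 4737 calls over all genes and 3 to 5 among the 9, with 649, 1969 and 712 over all genes without vehicle 1, 2 and 3. Library size only gave 4093 higher and 499 lower, against 2033 and 1681. XDH, MOCS1 and MOCOS passed with limma voom only, and MOCS2 there and without doxorubicin 5. Same-numbered libraries did not deviate together (correlations 0.0425, 0.00205 and −0.00312), but a check on so few pairs cannot exclude pairing or a shared batch. The replicate block gave 3638 calls over all genes and 4 among the 9. Counting error weighs most on MOCOS, at 14 to 33 reads, and on AOX1 in vehicle, at 9 to 33.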
